A study of Mus musculus with 108 samples.

Results

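Cpa1 and Cpb1 encode the precursors of pancreatic carboxypeptidases A1 and B1, and their transcripts were followed over single acinar cells, 21 short-total and 87 full-total ones as defined further on. The rule took the rows of the deposited table that map to these 2 mouse symbols, 2 of 45195 gene rows, and both were detected in every cell. Each sample was 1 acinar cell, the enzyme-secreting cell type of the exocrine pancreas, from untreated male C57BL/6 mice aged 12 weeks with no engineered allele named. Before cells were picked and lysed, the tissue was dissociated with enzymes and islets were filtered out, and libraries followed a SMART-seq2 type protocol. All cells formed 1 group, and the labels named no animal, day or plate. Cells were therefore not treated as replicates, no p-value was computed, and every SD or correlation describes the spread between cells.

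Carboxypeptidases are zinc metalloproteases that remove amino acids from the C-terminal end of peptides. Acinar cells store them as inactive procarboxypeptidases in zymogen granules, and in the gut trypsin cleaves off the propeptide. Carboxypeptidase A1 prefers aromatic and aliphatic end residues, the kind of ends that chymotrypsin and elastases leave. Carboxypeptidase B1 takes lysine and arginine, the ends that trypsin leaves. Cpa1 is also known as a marker of multipotent tip cells in the embryonic mouse pancreas.

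The genes lie on different chromosomes of GRCm38, the assembly also called mm10. Cpa1 (ENSMUSG00000054446) spans 30639218 to 30645363 on the plus strand of chromosome 6. Cpb1 (ENSMUSG00000011463) spans 20248264 to 20275733 on the minus strand of chromosome 3, next to the mast cell carboxypeptidase gene Cpa3, with 6082 bases between them. The coding sequences are nearly equal in length, 1257 bases for Cpa1 and 1245 for Cpb1. The transcripts that carry them differ in base composition, with a GC content of 53.3% for Cpa1 and 40.4% for Cpb1.

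The promoter windows of both genes are shown because acinar enzyme genes are known targets of the PTF1 complex, in which Ptf1a with an E-protein binds an E-box and Rbpjl binds the letters TGGGAA. Each window runs from 250 bases before to 50 bases after the start of the gene in RefSeq (GRCm38.p6), 5′ to 3′ on the gene's strand, at chr6:30638968-30639267 for Cpa1 and chr3:20275684-20275983 for Cpb1. Capitals mark matches, searched on both strands, to the E-box letters CANNTG, the Rbpjl letters TGGGAA, the letters AGATAA known from sites of Gata factors, and the core promoter letters TATAAA. The letters CAAGGTCA, known from Nr5a2 sites, were also searched.
Cpa1: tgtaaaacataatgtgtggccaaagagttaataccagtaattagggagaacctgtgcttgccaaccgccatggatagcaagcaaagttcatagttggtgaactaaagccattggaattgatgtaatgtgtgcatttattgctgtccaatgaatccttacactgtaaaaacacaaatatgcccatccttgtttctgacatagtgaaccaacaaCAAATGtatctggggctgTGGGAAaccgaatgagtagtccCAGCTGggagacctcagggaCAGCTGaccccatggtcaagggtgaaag
Cpb1: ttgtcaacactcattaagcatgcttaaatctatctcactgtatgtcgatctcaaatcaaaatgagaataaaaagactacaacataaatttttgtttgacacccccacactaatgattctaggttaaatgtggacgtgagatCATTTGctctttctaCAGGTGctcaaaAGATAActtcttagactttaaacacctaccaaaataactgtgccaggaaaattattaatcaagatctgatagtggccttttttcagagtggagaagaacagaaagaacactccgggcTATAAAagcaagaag
The Cpa1 window held 3 E-box matches, at -38, 3 and 23 from the gene start, and 1 match to the Rbpjl letters at -20. The Cpb1 window held 2 E-box matches at -109 and -94 and 1 match to the Gata letters at -82. It also held 1 match to the core promoter letters at 36. The matches at 3, 23 and 36 lie after the annotated start, not before it. No match overlapped another, and the Nr5a2 letters were in neither window. Over all 32851 windows of this length, the E-box letters were found in 72.3%, the Rbpjl letters in 25.6%, the Gata letters in 11.2%, the core promoter letters in 13.6% and the Nr5a2 letters in 1.56%. These matches describe letters only, and no binding was measured.

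Both transcripts were abundant, and their TPM varied within a narrow range. Levels are in TPM, the share of a cell's reads that a gene takes after correction for its length, so levels of different genes can be compared. Cpa1 averaged 20928 ± 2216 TPM (SD over all cells) and had the 17th highest mean of all genes. Its lowest cell held 15388.5 TPM, its median cell 20976 TPM and its highest cell 28981 TPM, a range of 1.88-fold. Cpb1 averaged 10246 ± 1181 TPM and ranked 24th, with a lowest cell at 6869 TPM, a median of 10338 TPM and a highest cell at 13371 TPM, a range of 1.95-fold. Cpa1 was above Cpb1 in every cell.

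The coefficient of variation (CV) between cells was 0.106 for Cpa1 and 0.115 for Cpb1 in TPM, and 0.232 and 0.229 with each cell scaled to the sum of genes outside the secreted list. Of the 27 secreted enzymes and granule proteins with a mean of at least 1000 TPM, Cpa1 had the 2nd lowest CV in TPM and Cpb1 the 4th lowest, and the median CV of these genes was 0.169. Against a trend of squared CV on mean expression over all genes tested, Cpa1 and Cpb1 were each at 0.48 times the trend. Neither reached the 2 times at which a gene was called variable, a level reached by 868 of 7227 genes (12%). The listed secreted genes took a mean of 87.8% of each cell's total, so a TPM level of 1 of them depends on the others.

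The highest and lowest cells of each gene were mostly different cells. Cpa1 was highest in cell 70, Cell__number_109 and cell 97, at 28981, 25593 and 25350 TPM. Of these, cell 70 also ranked 6th for Cpb1, whereas Cell__number_109 and cell 97 ranked 92nd and 75th. Cpa1 was lowest in cells 51, 92 and 21, at 15388.5, 15868 and 16120 TPM, and cells 51 and 92 were low in Cpb1 as well, at 7791 and 7790 TPM. Cpb1 was highest in cells 16, 98 and 62, at 13371, 13080 and 12573 TPM, where Cpa1 stood at 19088, 20897 and 21113 TPM. It was lowest in Cell__number_113, cell 26 and Cell__number_105, at 6869, 7110 and 7284 TPM. Of the 27 cells highest in Cpa1, 6 were also among the 27 highest in Cpb1, and of the 27 lowest in Cpa1, 13 were among the 27 lowest in Cpb1. Opposite ends shared 2 cells high in Cpa1 and low in Cpb1, and 4 low in Cpa1 and high in Cpb1. Unrelated rankings would share 6.75 cells on average, so in TPM the high ends overlapped no more than that and the low ends more. Neither these ranks nor the overlaps were recomputed on each cell's own total. The columns of cell 92, Cell__number_113 and Cell__number_105 added up to only 865277, 874817 and 917224 TPM. Their low TPM are therefore not on the same total as those of full-total cells.

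**Figure D1:**
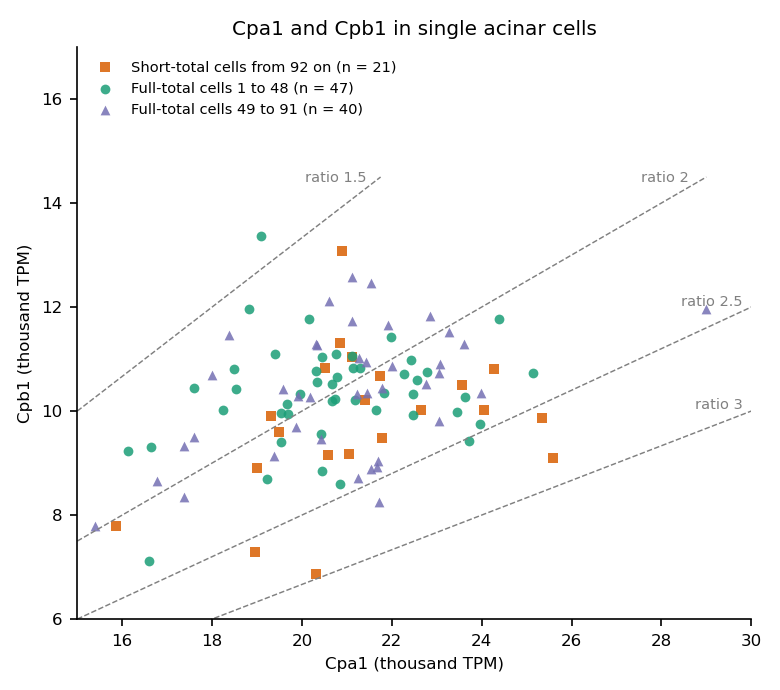
Cpa1 against Cpb1 with axes in units of 1000 TPM, 1 point per cell, coloured by set, with dashed lines of constant ratio. Cell 70 is at the far right with 28981 TPM of Cpa1, and the ratio runs from 1.43 to 2.96.

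In TPM, Cpa1 was at about 2 times the level of Cpb1. This ratio is unaffected by any scaling applied to a whole cell. It compares TPM from amplified cDNA and does not count molecules. The ratio of Cpa1 to Cpb1 had a median of 2.04 and a mean of 2.06 ± 0.267 (SD over all cells), and Cpa1 was over 2 times Cpb1 in 60 cells. It was lowest in cells 16, 10 and 98, at 1.43, 1.57 and 1.60, and highest in Cell__number_113, Cell__number_109 and cell 76, at 2.96, 2.81 and 2.63. Cell 16 had the highest Cpb1 and Cell__number_113 the lowest, while their Cpa1 ranked 90th and 74th.

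The ratio of the pair was one of the least variable among abundant secreted genes, both of them genes of low CV. The SD of the log2 ratio over cells was 0.184 for Cpa1 to Cpb1, the 3rd lowest of the 351 pairs that the 27 abundant genes form, against a median of 0.354. The lowest values were those of Cpa1 to Pnlip, the pancreatic lipase gene, at 0.171, and Cpb1 to Pnlip, at 0.176. After Cpa1 and Cpb1 came Ctrl to Cela2a, a chymotrypsin-like protease and an elastase, at 0.184, and Cpa1 to the trypsinogen Prss2 at 0.195. At the other end of all 38 other detected secreted genes were the trypsinogens Prss1, Prss3 and Gm10334, with 1.58, 1.40 and 1.30 against Cpa1 and 1.62, 1.39 and 1.31 against Cpb1. Prss1, Prss3 and Gm10334 averaged only 55.2, 314 and 66.5 TPM, below the 1000 TPM floor of the abundant genes. Near-identical sequences also make the separate trypsinogen values uncertain. The SD of a log2 ratio depends on the spread of each gene as well as on how the 2 vary together. Cpa1 and Cpb1 had the 2nd and 4th lowest CV of the 27 genes, so a low SD does not by itself show a held ratio. By Spearman correlation rather than SD, Cpa1 with Cpb1 ranked only 79th of the 351 pairs.

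**Figure D2:**
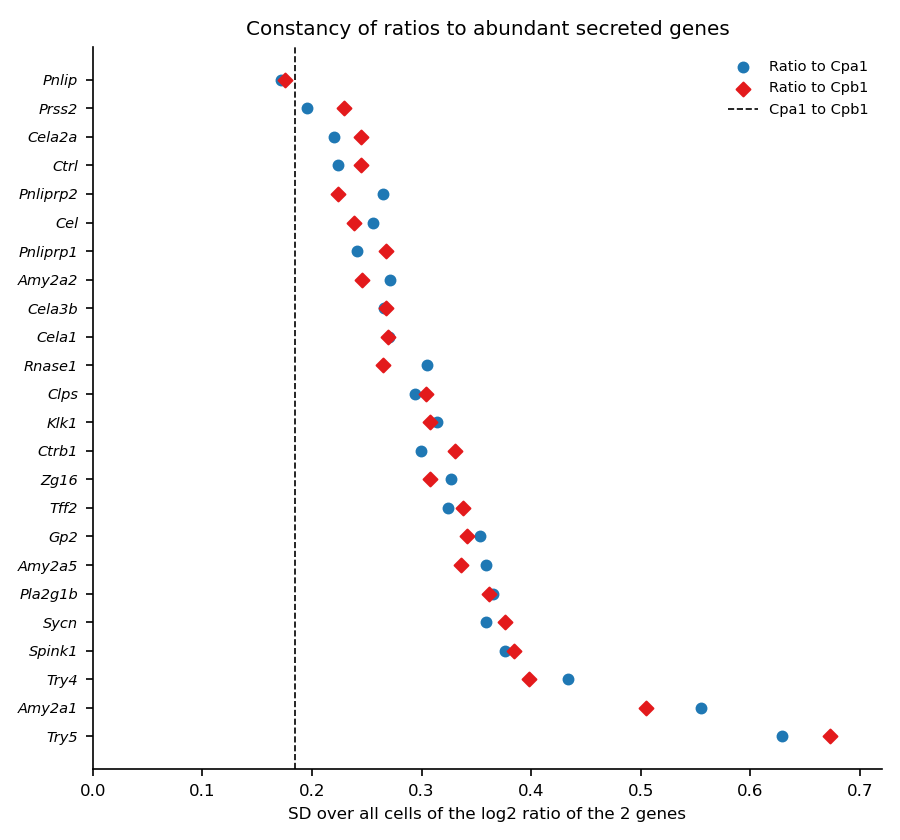
SD over cells of the log2 ratio of abundant secreted genes, with 1 gene of the list not shown, to Cpa1 (circles) and to Cpb1 (diamonds), with Cpa1 to Cpb1 as the dashed line at 0.184. Pnlip lies left of the line for both genes, and Try5, Amy2a1 and Try4 lie farthest to the right.

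Across cells, Cpa1 and Cpb1 varied together weakly. On log2(TPM + 1) the Spearman correlation was 0.266 and Pearson's r 0.369, and r was 0.307 without the 2 cells farthest from the median of Cpa1. Cells share a library type and a fixed total, so a correlation of TPM also depends on what fills the rest of the total. With each cell scaled to the sum of genes outside the secreted list, the Spearman correlation was 0.814, and with median-of-ratios size factors it was 0.742. With median-of-ratios size factors the CV was 0.192 for Cpa1 and 0.184 for Cpb1. The median correlation of Cpa1 with the other secreted genes was 0.528 and 0.411 under these scalings, and that of Cpb1 0.578 and 0.464. In TPM these medians were -0.035 for Cpa1 and -0.022 for Cpb1, beside -0.011 and 0.043 over 7225 other genes tested.

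Lipases were the enzymes most like Cpa1, and Pnlip and Cel were high for both genes. The 5 genes with the highest Spearman correlation with Cpa1, among genes detected in at least 25% of cells, were Pnliprp1, a lipase-related protein, at 0.503, Pnlip at 0.480, the cationic amino acid transporter Slc7a3 at 0.452, the bile salt-activated lipase Cel at 0.448 and the oxysterol hydroxylase Cyp39a1 at 0.380. In TPM over all cells 4 of 7226 genes reached 0.4 (0.0554%), and 3 of them were of the 38 secreted genes. The count was 9 in full-total cells alone and 28 with median-of-ratios scaling. Pnlip kept 0.543 in the short-total and 0.474 in the full-total cells described further on, and Cel 0.473 and 0.471. Slc7a3, with a mean of 1.67 TPM, had 0.111 and 0.517 in these sets. The lowest correlations with Cpa1 were those of the ATP synthase subunit Atp5o at -0.444, the acyl-CoA-binding protein Dbi at -0.391, Kctd3 at -0.387, Pdcd10 at -0.374 and the lysosomal thiol reductase Ifi30 at -0.374.

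The genes most like Cpb1 were 2 granule proteins and 1 distinct amylase, Amy2a2, present in 3 identical rows. Its highest correlations were those of Cuzd1, a zymogen granule membrane protein, at 0.558, Serpini2, a pancreatic serpin, at 0.552, and the amylase genes Amy2a2, Amy2a3 and Amy2a4 at 0.545. The 3 amylase rows carried identical values and count as 1. For Cpb1, 11 of 7226 genes reached 0.4 (0.152%), with the identical amylase rows counted separately, and 31 did so with median-of-ratios scaling. Of the 38 distinct secreted genes 6 reached it, with Pnlip at 0.536, Cel at 0.482 and Amy2a1 at 0.477 as the others, and the 3 genes outside the list were Tmed11, Tmem59 and Ado, named after their values were seen. Serpini2 was correlated with Cpa1 at only -0.048, and Cuzd1 at 0.274. Ribosomal protein genes were among the lowest with Cpb1, with Rpsa at -0.375, Rplp1 at -0.373, Rpl23 at -0.364 and Rps21 at -0.355.

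By role, over all cells, lipases and amylases had the highest median correlations and chymotrypsinogens and elastases were below 0, but members crossed these lines and some medians changed sign between sets of cells. For the 6 lipase and colipase genes the median correlation was 0.317 with Cpa1 and 0.364 with Cpb1. Of these, Pla2g1b (-0.160) was lowest with Cpa1 and Clps, the colipase gene (-0.170), was lowest with Cpb1. For 5 distinct amylase genes the medians were 0.189 and 0.347. The amylase median with Cpa1 was -0.131 for the short-total set against 0.263 for the full-total set, while that of lipases was 0.349 and 0.348. The 7 chymotrypsinogen and elastase genes, whose products open the ends that carboxypeptidase A1 trims, had a median of -0.078 with Cpa1. Ctrl was highest at 0.162 and Ctrc lowest at -0.249, and the median was 0.139 for the short-total set against -0.164 for the full-total set. With Cpb1 the median was -0.105, and 0 of 7 were above 0, beside 65.2% of all genes tested. The 8 trypsinogen genes, which make the ends for carboxypeptidase B1 and its activator, had a median of -0.051 with Cpb1, from -0.213 for Prss1 to 0.003 for Gm5771. With Cpa1 their median was -0.027, from -0.291 for Try4 to 0.246 for Prss2, and it was 0.151 in cells 1 to 48, -0.291 in cells 49 to 91 and 0.181 in short-total cells. With Cpb1 the trypsinogen medians in these sets were 0.063, -0.242 and 0.125. The 9 granule proteins and inhibitors had medians of -0.078 with Cpa1 and 0.129 with Cpb1, and the median with Cpa1 was 0.165 for the short-total set against -0.052 for the full-total set. Zg16, a granule lectin, was lowest with Cpa1 at -0.269, and Tff2, a trefoil peptide, was lowest with Cpb1 at -0.219. Rnase1, the pancreatic ribonuclease, stood at -0.170 and 0.217, and the kallikrein Klk1 at 0.058 and 0.062.

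**Figure D3:**
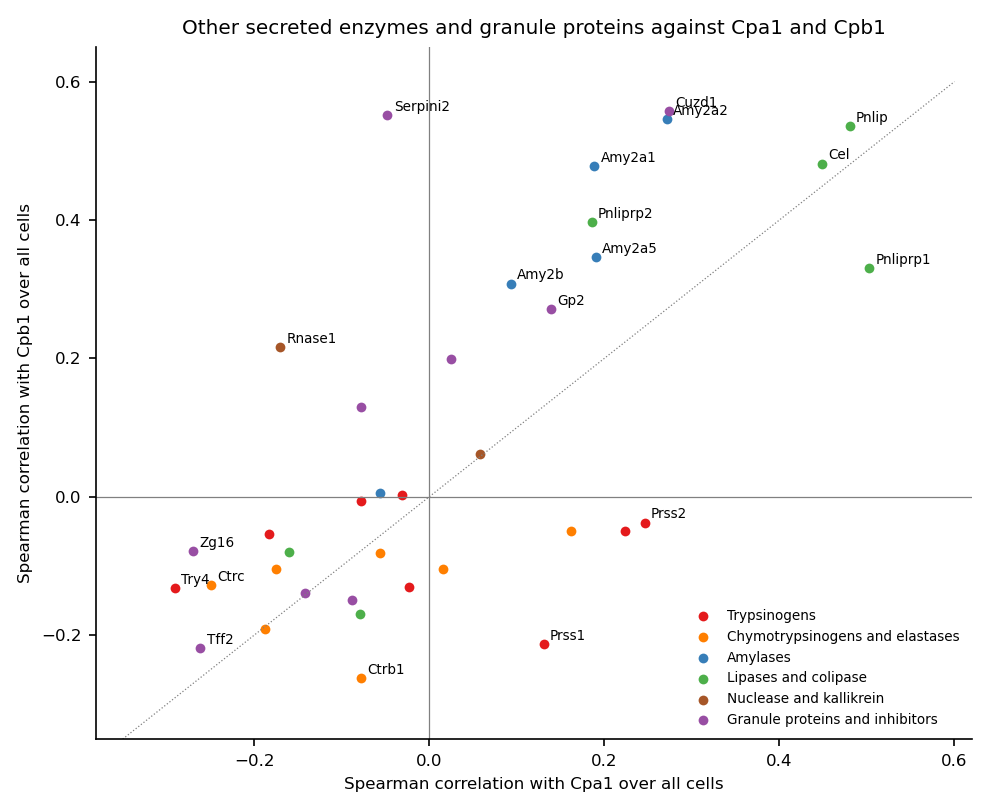
Spearman correlation with Cpa1 (horizontal) and with Cpb1 (vertical) over all cells, 1 point per distinct secreted gene, with 1 gene of the list not shown, coloured by role, with the dotted line where both are equal. Pnlip and Cel are high on both axes, Serpini2 at -0.048 and 0.552 is high for Cpb1 alone, and no chymotrypsinogen or elastase lies above 0 for Cpb1.

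The correlations ran with the length and base composition of the other gene. This relation was looked for after the values were seen, and describes genes, which are not independent replicates. Of the 37 secreted genes with an annotated coding length, 12 were of 1000 bases or more. Their median correlation was 0.188 with Cpa1 and 0.372 with Cpb1, with 9 of 12 above 0 for Cpa1 and 12 of 12 for Cpb1. The 25 shorter genes had medians of -0.078 and -0.080, with 7 of 25 above 0 for Cpa1 and 5 of 25 for Cpb1. Among them was Amy2a1, whose annotated coding length is 735 bases against 1524 for Amy2a2. Over all genes tested, 46.1% were above 0 for Cpa1 and 65.2% for Cpb1. The Spearman correlation between a gene's coding length and its correlation with the carboxypeptidase was 0.541 for Cpa1 and 0.617 for Cpb1. For the GC content of the transcript it was -0.391 for Cpa1 and -0.717 for Cpb1. Whether likeness in GC to the carboxypeptidase transcript plays a part was not tested. Serpini2 (38.3% GC) and Amy2a2 (39.5%) are low in GC, and Ctrb1 (57.6%), at -0.261 with Cpb1, is high. Other genes went against the relation, as Amy1 (40.2%) stood at 0.005 with Cpb1 and Spink1 (44.6%) at -0.139. Over 6787 tested genes with a length the same values were smaller, 0.217 and 0.0136 for length and -0.064 and -0.133 for GC.

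By coding length, cut at 1000 bases, 25 abundant secreted genes other than Cpa1 and Cpb1 were split into 8 longer and 17 shorter ones. The amylase gene Amy2a1 was among the shorter. A level of longer against shorter genes was formed per cell, as the mean log2 level of the 8 minus that of the 17. It was correlated with Cpa1 at 0.352 (Pearson 0.423, and 0.391 without the 2 farthest cells) and with Cpb1 at 0.519 (Pearson 0.509, and 0.526), and with their log2 ratio at -0.095. Taken as residuals on it, Cpa1 and Cpb1 were correlated at 0.100 (Pearson 0.197), a setting added after the values were seen. In the short-total cells its correlation was 0.006 with Cpa1 and 0.253 with Cpb1, and in the full-total cells 0.436 and 0.562. Whether RNA quality or amplification set these values was not tested.

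**Figure D4:**
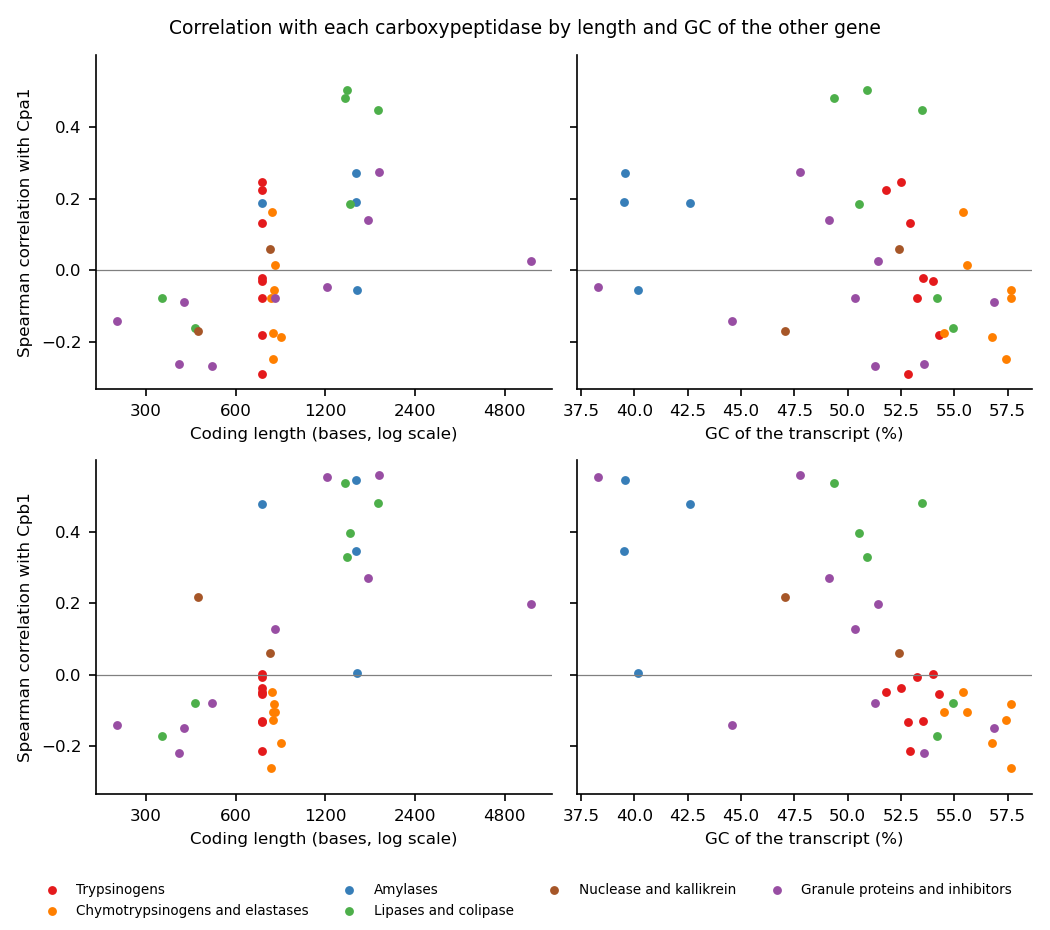
Spearman correlation with Cpa1 (top row) and Cpb1 (bottom row) over all cells against the coding length (left, log scale) and the GC content of the transcript (right) of other secreted genes with an annotated length, with 1 gene of the list not shown, coloured by role. Values for Cpb1 are mostly above 0 at low GC and mostly below 0 at high GC.

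Cells differed by where they stood in the series. The columns of 21 cells, those numbered from 92 on, added up to 788380 to 990520 TPM and are called short-total. The columns of the other 87, called full-total, added up to 1000000 within rounding. The labels state that 24 cells received spike-in RNA without naming them. The median number of genes reaching 1 TPM was 3939 for the short-total set and 4224 for the full-total set.

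Cpa1 had a median of 21055 TPM in short-total cells (15868 to 25593) and 20857 TPM in full-total cells (15388.5 to 28981). Cpb1 had a median of 9895 TPM in short-total cells (6869 to 13080) and 10432 TPM in full-total cells (7110 to 13371). The ranges overlapped almost entirely for both genes. On log2(TPM + 1) the difference of medians, short-total minus full-total, was 0.01 for Cpa1 and -0.08 for Cpb1, beside -0.15 over all genes tested. Both are smaller than the spread between cells. With median-of-ratios scaling, under which the median over all genes was -0.002, the differences were 0.25 and 0.19. The median ratio of Cpa1 to Cpb1 was 2.24 for the short-total set against 2.02 for the full-total set. It was above the full-total median in 16 of 21 short-total cells, and 4 of the 10 highest ratios and 1 of the 10 lowest were in such cells. Since short-total cells were also numbered last and no animal is named, set and animal cannot be told apart.

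The full-total cells were also divided after cell 48, a bound that earlier results of these data had set by Reg genes. The ratio of Cpa1 to Cpb1 had medians of 1.98 in cells 1 to 48 and 2.02 in cells 49 to 91. The Spearman correlation of Cpa1 with Cpb1 was 0.152 in cells 1 to 48, 0.375 in cells 49 to 91 and 0.360 in short-total cells. In cells 1 to 48 it rested on few cells, as r was 0.286 there and 0.056 without the 2 farthest. The constancy of the ratio held less well in some sets. Cpa1 to Cpb1 ranked 12th lowest of 351 pairs in cells 1 to 48, 4th in cells 49 to 91 and 31st in short-total cells, with SDs of 0.172, 0.171 and 0.210.

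**Figure D5:**
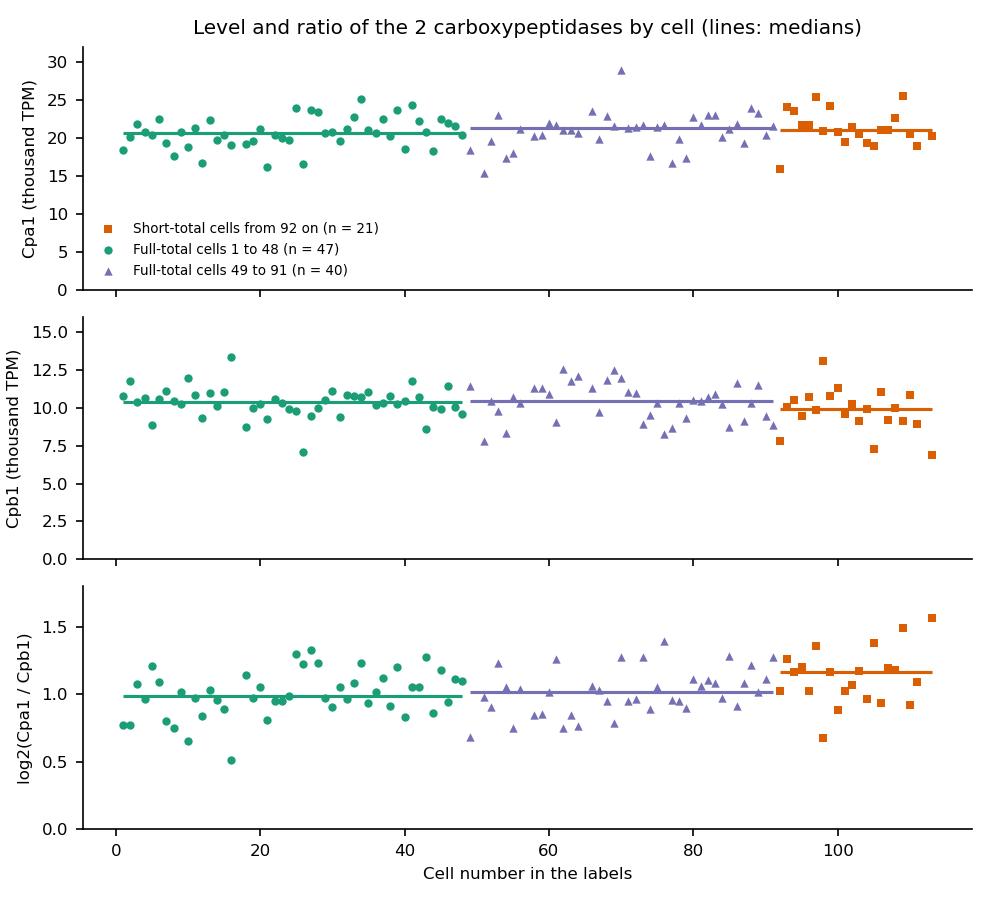
Cpa1 and Cpb1 in units of 1000 TPM and the log2 ratio of Cpa1 to Cpb1, plotted by cell number, 1 point per cell, with horizontal lines at the median of each set. Levels are even along the series, and the median ratio is highest in the short-total cells at the right.

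The factors known to switch on acinar enzyme genes gave correlations near those of all genes. The 10 acinar transcription factors tested had a median correlation of -0.003 with Cpa1, from -0.131 for Tcf12 to 0.138 for Gata4, and of 0.031 with Cpb1, from -0.137 for Nr5a2 to 0.306 for Xbp1. Of 20 ER chaperone and stress genes, 15 were above 0 with Cpa1 (median 0.059, from -0.131 for Pdia6 to 0.217 for Chac1) and 17 with Cpb1 (median 0.093, from -0.063 for Manf to 0.281 for P4hb). These medians changed sign between sets: with Cpa1 the median was 0.081 in cells 1 to 48, 0.294 in cells 49 to 91 and -0.147 in short-total cells, and with Cpb1 it was 0.188, -0.055 and 0.058. Of 16 genes of protein import into the ER, 3 were above 0 for Cpa1 (18.75%) and 11 for Cpb1 (68.8%), beside 46.1% and 65.2% of all genes tested, so the share for Cpb1 was near that of all genes. The difference between Cpa1 and Cpb1 was not tested. Sec61b, a subunit of the import channel, stood at -0.365 with Cpa1. Of 14 ribosomal protein genes listed, 8 were above 0 for Cpa1 and 3 for Cpb1, with medians of 0.005 and -0.168. Over all genes tested, 3328 of 7225 were above 0 for Cpa1 and 4711 of 7225 for Cpb1. The list of 7 Reg genes, secreted lectin-like proteins, with the stress gene Nupr1 among them, had medians of -0.028 and 0.098, with Reg3d lowest at -0.103 for Cpa1 and Reg1 highest at 0.220 for Cpb1. Immediate-early genes (12) had medians of -0.045 and 0.070, with Ier3 lowest at -0.169 for Cpa1. Their median with Cpa1 was -0.399 in cells 1 to 48 and 0.209 in cells 49 to 91, and that of the Reg list -0.336 in cells 49 to 91 and 0.116 in short-total cells, so both signs differed between sets.

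Few other carboxypeptidases were expressed. Cpn1, the catalytic chain of carboxypeptidase N, was detected in every cell at 8.99 ± 3.46 TPM. The lysosomal serine carboxypeptidase Ctsa was detected in 99.1% of cells at 6.80 ± 2.86 TPM, the tubulin deglutamylase Agtpbp1 in 94 at 3.04 ± 2.56 TPM, and Scpep1, a serine carboxypeptidase, in 69 at 1.48 ± 1.22 TPM. Cpe, which processes prohormones in endocrine cells, was detected in 67 cells at 2.79 ± 2.98 TPM with a highest value of 16.25 TPM, Cpq in 40 at 0.990 ± 1.30 TPM and Agbl3 in 12 at 0.314 ± 0.697 TPM. Correlations of these genes with Cpa1 and Cpb1 ran from -0.207 (Agtpbp1 with Cpa1) to 0.188 (Cpn1 with Cpb1). Of 27 genes listed, 5 were detected in 1 to 8 cells, among them Cpa3 in 5 with at most 1.90 TPM. A further 12 reached 1 TPM in 0 cells, and 5 of these were listed at 0 throughout. For 0 cells the upper limit would be 2.78% of cells if cells were independent, which the labels cannot show. Lxn, the gene of latexin, an inhibitor of A-type carboxypeptidases, was detected in 95.4% of cells at 5.16 ± 2.65 TPM. Tmprss15, the gut enteropeptidase that activates trypsinogen, was listed at 0 throughout, and the A-type inhibitor-like Rarres1 was detected in 1 cell.

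The acinar label was checked against markers. The 7 acinar markers reached 1 TPM throughout. No cell had more than 1 of 6 endocrine, 2 of 5 mast cell or 2 of 5 macrophage markers. Cell 40, with 6946 genes the cell of most genes, held 4 of 5 endothelial markers, cell 96 held 4 of 5 stellate or fibroblast markers and cell 15 held 4 of 6 ductal markers. The summed level ranged from 0 to 8.84 TPM for endocrine, 2.90 TPM for mast cell, 61.25 TPM for endothelial, 18.3 TPM for stellate or fibroblast, 5.97 TPM for macrophage and 350 TPM for ductal markers. Cftr, Ins1, Sst, Ppy, Chga, Cma1, Tpsb2, Mcpt4, Cdh5, Pdgfrb, Adgre1 and Ptprc were below 1 TPM in every cell.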

How the data were processed

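The authors deposited 1 table of TPM for 45195 Ensembl gene rows and 108 cells. Column sums near 1000000 gave the unit. The tools RSEM 1.2.21, STAR 2.4.2a and edgeR and the build mm10 appear, per the submitters' processing notes, without their roles. TPM keep no depth, so the reads behind each value are unknown, and amplified cDNA was made without molecular identifiers per the labels' protocols.

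Columns were matched to cells by cell number and 44548 rows to symbols. No cell was left out, no columns were identical and no doublet caller was run. Detection meant 1 TPM or more, and the 7227 genes reaching it in 11 or more cells (10%) were tested. Correlations used log2(TPM + 1). Variability was squared CV over a lowess trend (span 0.3), called at 2 times. Rows with identical values (Amy2a3 and Amy2a4 with Amy2a2) counted once among secreted genes. Coding length is the longest in GENCODE release M21, and GC that of its transcript. RSEM is known to divide reads among near-identical transcripts, which would make trypsinogen and amylase values uncertain.

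Named genes followed a rule: the 5 highest and 5 lowest correlations with each member, the 3 lowest and 3 highest ratio SDs, the extremes of each list, the detected carboxypeptidases and the 3 highest and lowest cells. Members and lists were chosen with earlier results of these data known. A few further names (Serpini2, Ctrb1, Amy1 and Spink1 by GC, marker genes) were picked from their values. Functions were tested on simulated data. Values of 2 genes that the rule names are not reported here. Promoter windows were taken from RefSeq for both genes. Python 3.11.15, pandas 2.3.3, numpy 2.4.6, scipy 1.17.1 and statsmodels 0.14.6 were used.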

Additional observations from a re-analysis of the deposited data

How the results depend on the processing

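Of 84 recomputed values, 62 stayed within the spread between cells (levels, ratio, difference of medians), within 0.1 (correlations) or within 1.5 times (ratio SD, counts), and 22 did not. The levels of both genes, the median ratio and its SD stayed within these bounds in every set of cells tried. For the levels and the median ratio this says little. A mean or median over many cells could hardly leave the spread between single cells. The median log2 ratio was 1.164 in short-total cells alone, against 1.025 in all cells. Leaving out cells 31 and 40 together moved none of the values it was tried on beyond these bounds. The correlation of Cpa1 with Cpb1 was 0.152 in cells 1 to 48 and 0.375 in full-total cells 49 to 91. It was 0.369 as Pearson's r with a pseudocount of 1, 0.1 or 10. As residuals on longer against shorter genes by coding length, a setting chosen after seeing the data, it was 0.100. Scaling mattered most. With genes outside the secreted list as the base the correlation of Cpa1 with Cpb1 was 0.814, the medians with other secreted genes 0.528 (Cpa1) and 0.578 (Cpb1), and the differences of short-total minus full-total cells 0.35 (Cpa1) and 0.31 (Cpb1). With median-of-ratios size factors over 1226 genes these values were 0.742, 0.411, 0.464, 0.25 and 0.19. The cause of these shifts was not tested. In short-total cells alone the medians with other secreted genes were 0.152 and 0.203. The count of genes correlated at 0.4 or more was 28 (Cpa1) and 31 (Cpb1) with median-of-ratios scaling, and 9 for Cpa1 in full-total cells alone. The count of variable genes was 372 with genes in at least 50% of cells, where fewer genes were tested. No paired analysis was possible because all cells form 1 group. The depth in reads is unknown and sets no stated limit here.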
